A study of Mus musculus with 12 samples.

Results

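The genes of the mitochondrial ribosomal proteins were taken as every gene symbol in the deposited expression table that starts with *Mrpl* or *Mrps* and a number. The rule found 75 of the 20368 genes in the table, 46 named for the large subunit and 29 for the small subunit. One of them, *Mrps6*, was counted together with *Slc5a3* in a joint row. All 75 passed the filter on low values, a mean of at least 0.5 RPKM (reads scaled to gene length and library size), in every comparison. RNA had been taken from embryonic hearts of CD1 mice at embryonic day 11.5 (E11.5) and day 12.5 (E12.5), with 3 libraries in each of 4 groups. Controls were Mesp1Cre;Hira+/fl and mutants Mesp1Cre;Hira-/fl. Both genotypes therefore carried the Cre and a floxed *Hira* allele, controls kept a wild type allele, and mutants had a constitutive null allele in its place. *Mesp1Cre* acts in early cardiac mesoderm and its descendants, while the sampled hearts can also hold cells of other origins, and recombination by cell type was not analysed here.

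Mitochondria have their own ribosome, which translates the few proteins encoded by mitochondrial DNA, all of them parts of the oxidative phosphorylation machinery. Every protein of this ribosome is encoded in the nucleus, made in the cytoplasm and imported, and is assembled there on the mitochondrial ribosomal RNAs. The heart depends on oxidative phosphorylation, and inherited faults in several of these genes, among them *MRPL3*, *MRPL44*, *MRPS14* and *MRPS22* in humans, have been described with cardiomyopathy. HIRA is a chaperone that places the histone variant H3.3 in chromatin, so the comparison of genotypes addresses whether these genes follow its loss in the cardiac lineage.

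Depth was similar across the 12 libraries, between 11994148 and 17483982 reads on genes, and the 9 cardiomyocyte markers, such as *Myh6* and *Tnnt2*, were present in every library with a summed level between 16384 and 22655 RPKM. The libraries differed in how reads depended on gene length. The slope of log2 level per doubling of gene length ran from -0.22 in E11.5 mutant 3 to 0.14 in E12.5 control 1, where a negative slope means relatively more reads on short genes. This bears on the mitochondrial ribosomal protein genes because their median length was 1055 bases, against 2866 bases for all genes tested. They were therefore set beside the 5395 other genes with lengths between 615.4 and 2701.6 bases, called genes of like length here. These limits are the 10th and 90th percentiles of the members' own lengths. Within them the other genes lie more towards the long end. In the control stage comparison 12 members and 274 other genes had 600 to 800 bases, and 10 members and 1498 other genes had 1500 to 2000 bases. Values over the whole range therefore match length only in part. By reads on Y-linked genes all 3 E11.5 controls were male, against 1 of 3 libraries in each other group, so sex moved with genotype at E11.5 and with stage in controls.

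*Hira* reads were not lower in mutants beyond the spread between libraries. *Hira* was at 17.53, 19.01 and 15.12 RPKM in E11.5 controls and at 16.25, 12.57 and 13.95 RPKM in E11.5 mutants. At E12.5 it was at 17.21, 19.07 and 13.39 RPKM in controls and at 17.58, 15.67 and 15.53 RPKM in mutants. The groups overlapped at both stages, with a log2 fold change of -0.26 ± 0.14 (SE) at E11.5 (adjusted p = 0.607, edgeR) and -0.01 ± 0.12 at E12.5 (adjusted p = 0.962). These values count reads over the whole gene and cannot show loss of the floxed part alone, so they do not check the genotype labels. Reads by exon were not analysed here.

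*Mrpl40*, whose protein belongs to the central protuberance of the large subunit, is the direct neighbour of *Hira*. The genes run away from each other on chromosome 16, at chr16:18872018-18876767 and chr16:18877037-18970309 of mm10, and 112 bases lie between their RefSeq start sites (GRCm38.p6). That stretch, chr16:18876638-18876749 on the + strand, is shown because both genes start at its ends.
Hira-Mrpl40: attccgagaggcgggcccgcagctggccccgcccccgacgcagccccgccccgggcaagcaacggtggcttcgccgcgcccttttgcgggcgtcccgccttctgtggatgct
Its GC content was 75%. *Mrpl40* was at 53.39, 49.17 and 63.72 RPKM in E11.5 controls and at 48.75, 51.1 and 61.68 RPKM in E11.5 mutants. At E12.5 the controls had 39.89, 50.15 and 49.93 RPKM and the mutants 44.4, 49.91 and 46.52 RPKM. The genotypes overlapped at both stages, with log2 fold changes of -0.03 ± 0.15 at the earlier stage (adjusted p = 0.973, edgeR) and 0.02 ± 0.10 at the later (adjusted p = 0.924).

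*Mrpl23*, a protein at the polypeptide exit, is encoded at chr7:142532799-142540747 (mm10), 16789 bases beyond the end of *Tnnt3*, the fast skeletal muscle troponin T gene. *Tnnt3* was higher in mutants by 1.32 ± 0.39 (E11.5) and 1.72 ± 0.59 (E12.5) on the log2 scale, short of the threshold (adjusted p = 0.257 and 0.124, edgeR). *Mrpl23* was at 143.2, 129.1 and 153.6 RPKM in E11.5 controls and at 100.9, 121.2 and 185.2 RPKM in E11.5 mutants. The mutants spanned the whole control range, and the log2 fold change was -0.06 ± 0.21 (adjusted p = 0.966). At E12.5 the controls had 96, 124.6 and 114.3 RPKM and the mutants 119.1, 114.4 and 122 RPKM, giving a log2 fold change of 0.10 ± 0.10 (adjusted p = 0.597).

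**Figure D1:**
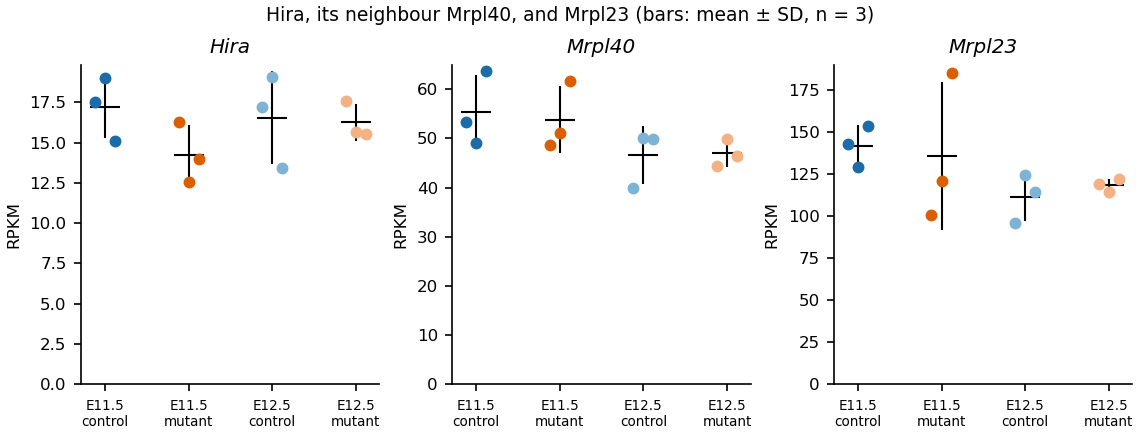
RPKM of *Hira*, *Mrpl40* and *Mrpl23* in each of the 12 libraries (coloured points), with the mean and SD of the 3 libraries of a group (black). The genotypes overlapped at both stages for all 3 genes.

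The levels of the 75 genes spanned a wide range although most of their proteins are present in equal numbers in a ribosome. *Mrpl42* was the highest, at 308.1 ± 69.64 RPKM (SD over the 12 libraries), followed by *Mrpl52* at 236.1 ± 49.19 RPKM and *Mrpl12*, a protein of the stalk that recruits translation factors, at 211.8 ± 35.65 RPKM. *Mrpl30* at 175.6 ± 45.82 RPKM and *Mrpl33* at 173 ± 39.09 RPKM came next. The ranges of neighbours among these 5 overlapped over the libraries, although *Mrpl42* was higher than *Mrpl52* in each of the 12 libraries. At the low end were *Mrpl1* (11.48 ± 1.116 RPKM), *Mrpl19* (10.9 ± 0.5432 RPKM), *Mrpl17* (9.253 ± 1.391 RPKM), *Mrps25* (7.123 ± 1.382 RPKM) and the joint row of *Mrps6* and *Slc5a3* (4.403 ± 0.3784 RPKM), whose highest library (5.011 RPKM) lay below the lowest of *Mrps25* (5.541 RPKM). A level per length depends on the gene length behind the deposited values, which can include every exon assigned to a gene. For *Mrpl17* that length was 6712 bases, 9.03 times the 743.5 bases of the median of its coding transcripts in GENCODE. For *Mrpl1*, *Mrpl19* and *Mrps25* it was 1 to 1.22 times that median. The joint row, with a length of 11693 bases, had no such median to set it against. *Mrpl11*, which was not among the lowest, was given 2882 bases, 4.35 times its 663 bases. Of the 73 members with a coding transcript in that annotation, 7 had a length over 1.5 times that median, against 30% of all tested genes.

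**Figure D2:**
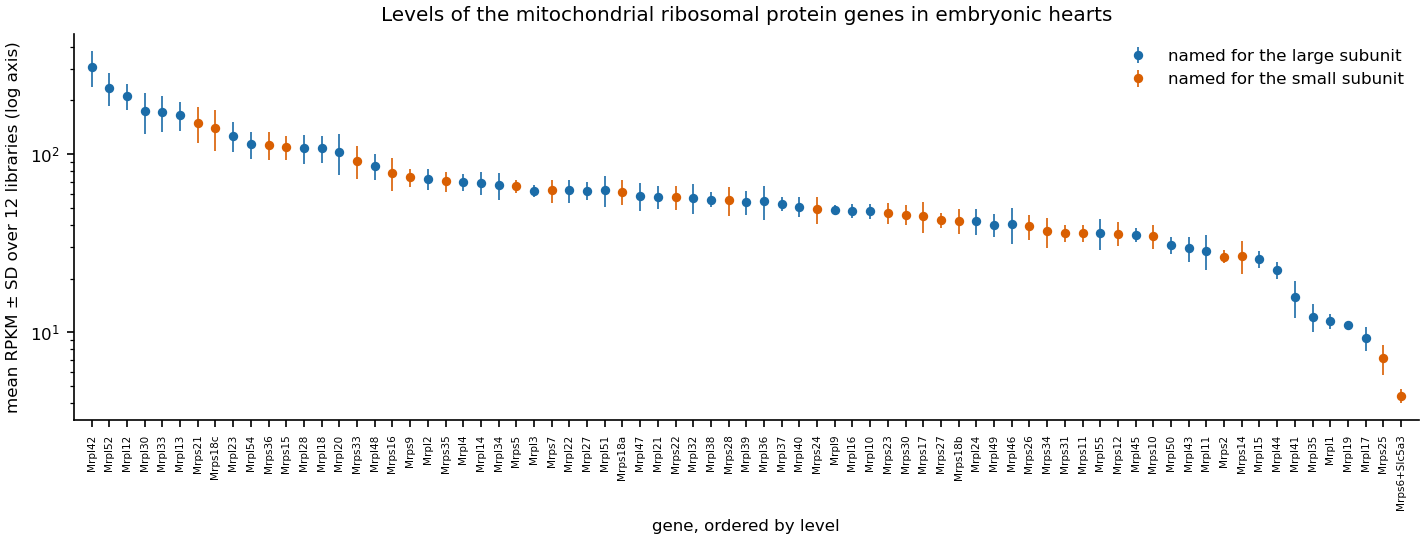
Mean RPKM over the 12 libraries with its SD for each of the 75 genes, on a log axis, ordered by level and coloured by the subunit in the gene's name. Levels ran from 4.403 RPKM for the joint row of *Mrps6* and *Slc5a3* to 308.1 RPKM for *Mrpl42*, the 6 highest were all named for the large subunit, and the 2 lowest for the small subunit.

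The genes tended to be high or low together in a library. Their summed level was 5577, 5109 and 6502 RPKM in E11.5 controls, 4534, 4972 and 6751 RPKM in E11.5 mutants, 4093, 4604 and 4739 RPKM in E12.5 controls and 4628, 4978 and 4753 RPKM in E12.5 mutants. In E11.5 mutant 3 all 75 genes lay above their own mean over the 12 libraries, and in E12.5 control 1 only 1 gene did. Those were also the libraries with the lowest and the highest length slope. The median deviation of the members from their own means was 0.36 in E11.5 mutant 3 and -0.27 in E12.5 control 1 on the log2 scale, and that of genes of like length was 0.17 and -0.11. Both E11.5 groups spread more widely than the E12.5 groups, at 5729 ± 709 and 5419 ± 1174 RPKM (SD, n = 3) for E11.5 controls and mutants, against 4479 ± 340 and 4786 ± 178 RPKM for E12.5 controls and mutants.

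**Figure D3:**
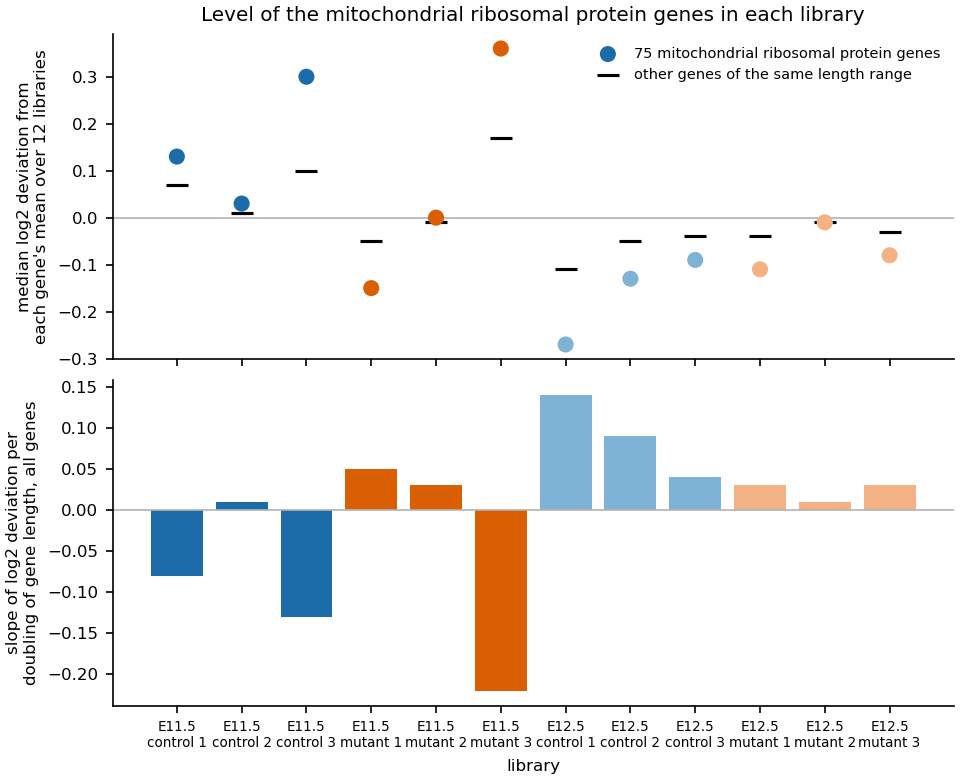
Upper panel: median log2 deviation of the 75 genes from each gene's mean over 12 libraries (points, coloured by group) and of other genes of like length (black dashes). Lower panel: slope of log2 deviation per doubling of gene length over all genes, from -0.22 in E11.5 mutant 3 to 0.14 in E12.5 control 1, the libraries where the 75 genes were highest and lowest.

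The first comparison asked which of these genes differed between mutant and control hearts at E11.5. None of the 75 passed an adjusted p of 0.05 in edgeR, where 0.115% of all tested genes did, and 0 passed in DESeq2 or limma. At an unadjusted p under 0.05, edgeR, DESeq2 and limma each gave 1 member. It was lower, which is 1.33% of members against 5.18% of all genes lower at that level in edgeR. The median log2 fold change was -0.06, with 26 genes higher and 49 lower, against -0.02 for genes of like length and 0.00 for all genes. With gene-wise offsets that remove each library's trend with gene length, the members' median was 0.00, with 38 higher and 37 lower.

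The lowest p at E11.5 belonged to *Mrpl32*, a large subunit protein that is processed by the mitochondrial m-AAA protease before assembly. It was at 63.48, 64.52 and 84.24 RPKM in controls and at 50.68, 52.46 and 60.3 RPKM in mutants. Every mutant library lay below every control library, and the log2 fold change was -0.37 ± 0.15 (adjusted p = 0.448, edgeR). *Mrpl24*, at the polypeptide exit, had a log2 fold change of -0.32 ± 0.17, *Mrps16*, a small subunit protein, -0.34 ± 0.21 and *Mrpl41* -0.31 ± 0.20. Highest on the other side were *Mrpl9* at 0.19 ± 0.11, *Mrpl10* of the stalk base at 0.20 ± 0.13, *Mrps2* at 0.19 ± 0.12 and *Mrpl43* at 0.27 ± 0.18. The mutant libraries of *Mrpl9* were at 47.55, 52 and 54.84 RPKM, above the controls at 46.12, 43.78 and 46.37 RPKM. With sex as a term of the fit the median log2 fold change was 0.25 and 0 genes passed. Sex and genotype cannot be told apart between the libraries that differ in both. Markers of other cell types moved with genotype at E11.5 too. Macrophage markers had a summed level of 13.11 to 29.51 RPKM in controls and 4.963 to 7.367 RPKM in mutants, and 1 of 5 genes tested fell. Epicardial and mesothelial markers were at 164.7 to 261 RPKM and 104.3 to 145.6 RPKM, and cushion mesenchyme markers at 312 to 380.3 RPKM and 143.9 to 249.1 RPKM. None of these 5 and 4 genes passed in edgeR, with 4 and 1 of them lower at an unadjusted p under 0.05. All 5 endothelial markers had higher values in mutants, where 0 passed in edgeR and 2 had an unadjusted p under 0.05, and their summed levels overlapped, at 151.4 to 197.3 RPKM and 172.7 to 288.8 RPKM. The part of these markers in the values of the 75 genes was not tested.

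None of the 75 genes passed the threshold between genotypes at E12.5 either. Of all tested genes 5% passed in edgeR, and no member passed in DESeq2 or limma. At an unadjusted p under 0.05, 11 members were higher and 0 lower in edgeR, while DESeq2 gave 9 and limma 14 members. The 11 were 14.7% of members, against 11.2% of all tested genes that were higher at that level. With gene-wise offsets that remove each library's trend with gene length, 3 members were higher and 3 lower at that level, 4% each, against 10.3% and 9.56% of all tested genes. Groups did not overlap for 10 members, each higher in mutants, which is 13.3% against 12.1% of all tested genes. The median log2 fold change was 0.11, with 63 genes higher and 12 lower, against 0.05 for genes of like length and -0.00 for all genes. Of the members 84% had higher values in mutants, as did 61.5% of genes of like length. With the length offsets the members' median was 0.03 and 65.3% were higher.

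*Mrps24*, a protein near the mRNA entry of the small subunit, had the lowest p. It was at 37.14, 43.07 and 43.52 RPKM in controls and at 51.56, 52.58 and 47.17 RPKM in mutants. The groups did not overlap, and the log2 fold change was 0.30 ± 0.09 (adjusted p = 0.086, edgeR). *Mrpl28*, a large subunit protein, was at 87.46, 90.67 and 93.62 RPKM in controls and at 103.4, 107.3 and 102.9 RPKM in mutants, a log2 fold change of 0.22 ± 0.07 (adjusted p = 0.0908). *Mrpl39* followed at 0.24 ± 0.09 and *Mrps33*, a small subunit protein, at 0.19 ± 0.07 (adjusted p = 0.132 and 0.135). Lowest on the other side were *Mrpl24* at -0.22 ± 0.11, *Mrps26* at -0.09 ± 0.09, *Mrps16* at -0.08 ± 0.09 and *Mrps25* at -0.10 ± 0.11. Without E12.5 control 3, 1 member passed the threshold, *Mrpl33*, with a log2 fold change of 0.35 ± 0.09 (adjusted p = 0.0493).

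Levels of cell type markers moved with genotype at E12.5. Erythroid markers fell in mutants for 6 of 7 genes, among them *Slc4a1*, the red cell anion exchanger, by 1.64 on the log2 scale (adjusted p = 0.00234, edgeR). Their summed level was 6049 to 9705 RPKM in controls and 3302 to 4161 RPKM in mutants. Macrophage markers fell for 2 of 5 genes tested, with a summed level over the 6 listed genes of 24.44 to 37.21 RPKM in controls and 17.86 to 23.18 RPKM in mutants, and 0 markers of either list were at 0. Of the epicardial and mesothelial markers 1 of 5 rose, and 1 of 4 cushion mesenchyme markers fell. All 4 liver markers had higher values in mutants, where 0 passed in edgeR and 3 had an unadjusted p under 0.05. Liver levels were low and uneven, with sums of 2.068 to 3.04 RPKM in controls and 1.699 to 25.15 RPKM in mutants. At E11.5 these sums were 0.6968 to 13.41 RPKM in controls and 0.4287 to 27.71 RPKM in mutants. Cardiomyocyte markers had a summed level of 16929 to 17894 RPKM in controls and 17951 to 20769 RPKM in mutants, where 0 of 9 passed in edgeR and 4 had an unadjusted p under 0.05, 3 of them higher. Their part in the values of the 75 genes was not tested. In bulk tissue, fewer cells of a type and less RNA per cell cannot be told apart.

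The second question was how the genes changed with stage. In control hearts 17 of the 75 genes fell from E11.5 to E12.5 and 0 rose, which is 22.7% of members, against 5.81% of all tested genes that fell and 8.85% of genes of like length. The median log2 fold change was -0.29, with 71 genes lower and 4 higher, against -0.12 for genes of like length and 0.01 for all genes. All 3 E12.5 controls lay below all 3 E11.5 controls for 49 members, 65.3% against 19.1% of all tested genes. Both subunits took part, with 11 of 46 genes named for the large subunit (median -0.34) and 6 of 29 for the small subunit (median -0.27). A fold change of at least 1.5 was reached by 6 of the 17.

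*Mrps18c*, a small subunit protein and one of a set of S18 paralogues, had the lowest p. It was at 166, 157.5 and 220.9 RPKM in E11.5 controls and at 103.4, 112.2 and 115.8 RPKM in E12.5 controls. The groups lay far apart, and the log2 fold change was -0.71 ± 0.13 (adjusted p = 0.019, edgeR). *Mrpl11*, of the centre that activates translational GTPases, was at 33.51, 30.17 and 39.83 RPKM at E11.5 and at 20.94, 23.72 and 23.14 RPKM at E12.5, for a log2 fold change of -0.61 ± 0.12 (adjusted p = 0.0208). *Mrps33* was at 108.3, 93.81 and 131.4 RPKM and then at 72.47, 72.55 and 75.98 RPKM, a log2 fold change of -0.59 ± 0.12 (adjusted p = 0.0252). *Mrpl22*, which lines the polypeptide exit tunnel, was at 66.67, 72.5 and 76.49 RPKM and then at 47.35, 52.31 and 55.11 RPKM, a log2 fold change of -0.48 ± 0.10 (adjusted p = 0.027). In each of these 4 genes the E12.5 libraries were close together and all lay below the E11.5 libraries.

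By role, the genes of the polypeptide exit fell for 3 of 8 (*Mrpl22*, *Mrpl39* and *Mrpl47*), those of the central protuberance for 1 of 6 (*Mrpl46*), those of the stalk and GTPase centre for 1 of 3 (*Mrpl11*), and those of the decoding region and mRNA path for 1 of 3 (*Mrps24*). None of the 4 genes around the peptidyl transferase centre (*Mrpl2*, *Mrpl3*, *Mrpl4* and *Mrpl16*) passed in edgeR, 1 of them had an unadjusted p under 0.05, and their median was -0.13. By comparison, 5.81% of all tested genes and 22.7% of members fell. With gene length offsets the counts were 1 of 8 at the exit (*Mrpl17*), 0 of 6 in the central protuberance, 1 of 3 in the stalk and GTPase centre and 0 of 3 in the decoding region, against 2.15% of all tested genes. The 2 proteins named for the small subunit that reside in the large one, *Mrps18a* and *Mrps30*, did not pass, with a median of -0.24. *Mrps36*, whose protein was later placed in the 2-oxoglutarate dehydrogenase complex outside the ribosome, fell by 0.45 on the log2 scale (adjusted p = 0.0458, edgeR) and had -0.06 with gene length offsets (adjusted p = 0.703). Of 9 genes known from inherited mitochondrial disease, *Mrps14* fell by 0.55 and *Mrps22* by 0.48, and 8 of the 9 were lower. With gene length offsets neither passed (-0.47 and -0.24, adjusted p = 0.0803 and 0.124, edgeR), and 4 of the 9 were lower. The other genes that fell were *Mrpl13*, *Mrpl20*, *Mrpl32*, *Mrpl36*, *Mrpl41* and *Mrpl42*, by 0.49 to 0.64 on the log2 scale. The 4 genes with higher values, which did not pass, were *Mrps11* (0.11 ± 0.11), *Mrpl9* (0.06 ± 0.09), *Mrpl10* (0.04 ± 0.09) and *Mrps2* (0.02 ± 0.09).

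Several members share exon sequence with another gene, and use of the strand in counting is not given in the sources used here. Exons of 29 members overlapped those of another GENCODE gene, for 26 on the opposite strand and for 5 on the same strand. *Mrpl46*, which fell by 0.59, and *Mrps11*, at 0.11, overlap each other by 173 bases on opposite strands. Among the genes that fell, *Mrps18c* shares 138 bases with a gene model on its own strand and *Mrps24* 226 bases with *Urgcp*, so a part of their reads may belong to the other gene.

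The length trend of the libraries moved with stage in controls. Among other genes the median log2 fold change ran from -0.51 under 600 bases, where 43.7% fell, to 0.23 at 5000 bases and above, where 1.26% fell. Of the members under 600 bases 1 of 8 fell (median -0.41). Between 600 and 800 bases 6 of 12 members fell (median -0.47), against 31% of other genes (median -0.41). Between 800 and 1000 bases 2 of 11 members fell (median -0.29), against 20.7% of other genes (median -0.31). Between 1000 and 1500 bases the medians were -0.23 for 22 members and -0.22 for other genes. The medians were further apart in the longer ranges. Between 1500 and 2000 bases 2 of 10 members fell (median -0.27), against 6.88% of other genes (median -0.12). Between 2000 and 3000 bases the medians were -0.34 for 5 members and -0.01 for other genes. They were -0.21 for 3 members and 0.08 for other genes between 3000 and 5000 bases. At 5000 bases and above they were -0.22 for 4 members and 0.23 for other genes. Among members of at least 2000 bases, some had gene lengths above the median of their coding transcripts. *Mrpl45*, *Mrpl41*, *Mrpl11*, *Mrpl15* and *Mrpl17* had 1.66, 4.12, 4.35, 2.22 and 9.03 times that median. *Mrpl1* had 1.22 times it, and *Mrps2*, *Mrpl50*, *Mrpl35*, *Mrpl19* and *Mrps25* had 0.993 to 1 times it. The joint row holds *Slc5a3* as well. Among members of 1500 to 2000 bases the highest such ratio was 1.37, for *Mrpl10*. The part of these lengths in the gap was not tested. With gene length offsets in the fit, 2 members fell, *Mrpl11* by 0.62 (adjusted p = 0.0208, edgeR) and *Mrpl17* by 0.51 (adjusted p = 0.0322). That is 2.67% of members, against 2.15% of all tested genes under the same offsets. The members' median was then -0.06, against 0.01 for genes of like length, and *Mrps18c* had -0.21 (adjusted p = 0.139).

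Both genes that passed with these offsets had been given far longer models than their coding transcripts, so the offsets treated them as long genes. With offsets on the median length of coding transcripts instead, chosen after the data were seen, 10 members fell, 13.3% against 3.97% of all tested genes, and the median was -0.21, against -0.05 for genes of like length. *Mrpl11* then fell by 0.44 (adjusted p = 0.0278, edgeR) and *Mrps18c* by 0.54 (adjusted p = 0.023), while *Mrpl17* had -0.13 (adjusted p = 0.443). *Mrpl11* thus fell under TMM scaling and under both kinds of length offset, but it did not pass without E12.5 control 1 or 2 (adjusted p = 0.112 and 0.0796). A sex term was also chosen after the data were seen. With it the comparison rested on E12.5 control 3, the only male library of its group, against the E11.5 controls. It therefore cannot decide whether *Mrpl11* or any other member fell apart from sex. The median was then -0.20, with 69 of 75 genes lower. Under TMM scaling without a sex term, the count of members that fell was 2 without E11.5 control 1 or 3 and 40 without E11.5 control 2. It was 0 without E12.5 control 1 or 2, and 10 without E12.5 control 3. Shares of all tested genes with a library left out are not given here. Of the epicardial and mesothelial markers 3 of 5 fell and 1 rose with stage in controls, with a summed level of 164.7 to 261 RPKM at E11.5 and 114 to 169.4 RPKM at E12.5, and 2 of 5 endothelial markers rose, from 151.4 to 197.3 RPKM up to 208.7 to 222.2 RPKM. Of 7 erythroid markers 2 fell and 1 rose, with summed levels of 6802 to 8511 RPKM and 6049 to 9705 RPKM, 1 of 4 cushion mesenchyme markers fell and 1 of 9 cardiomyocyte markers rose. Macrophage markers had 13.11 to 29.51 RPKM and 24.44 to 37.21 RPKM, with 0 of 5 past the threshold in edgeR and 2 higher at an unadjusted p under 0.05. Their part in the values of the 75 genes was not tested.

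**Figure D4:**
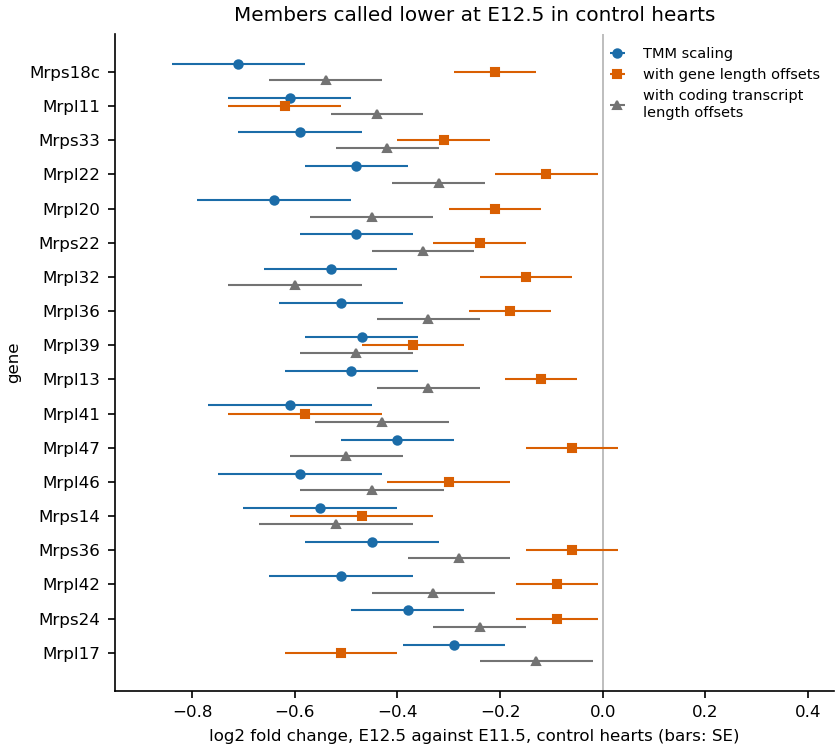
Log2 fold change from E11.5 to E12.5 in control hearts, with its SE, for the 17 members that fell under TMM scaling and for *Mrpl17*, under TMM scaling (circles), with gene length offsets (squares) and with coding transcript length offsets (triangles). All 18 genes kept a negative value in the 3 fits, the squares lie between -0.06 and -0.62, and *Mrpl11* was at -0.61, -0.62 and -0.44.

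**Figure D5:**
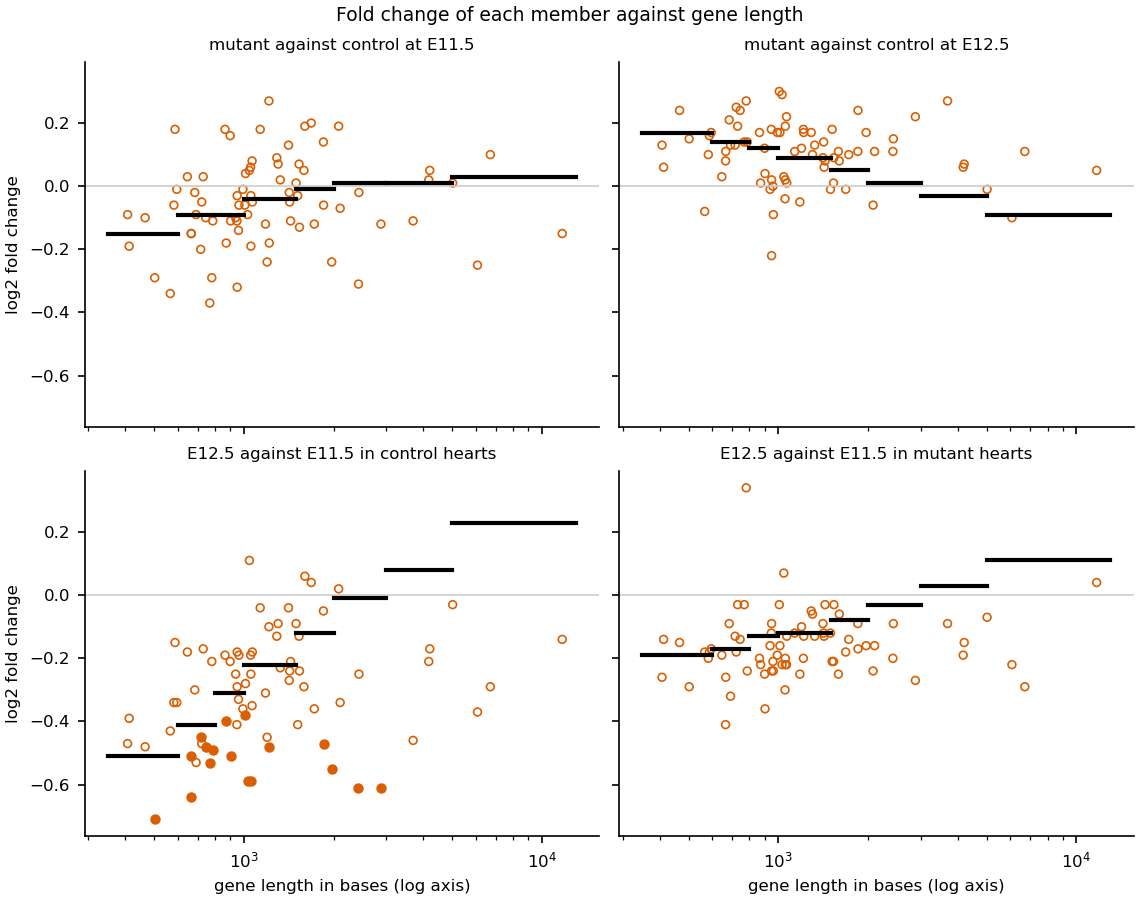
Log2 fold change of each of the 75 genes (orange, filled where the adjusted p was at most 0.05) against gene length on a log axis, with the median of other genes in each length bin (black lines), in 4 comparisons. In controls between stages the lines climb from -0.51 to 0.23, and the members above 2000 bases lie mostly below them. Several of those members have a gene length well above that of their coding transcripts, and others do not.

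In mutant hearts 0 of the 75 genes passed between stages in edgeR, where 0.556% of all tested genes did, and 0 passed in DESeq2 or limma. At an unadjusted p under 0.05, 1 member was found by edgeR, 1 by DESeq2 and 0 by limma. The median log2 fold change was -0.17, against -0.08 for genes of like length, with 72 of 75 genes lower. All 17 genes that fell in controls had lower values at E12.5 in mutants too, 1 of them with an unadjusted p under 0.05. That gene was *Mrpl20*, at 95.08, 99.16 and 150 RPKM at E11.5 and at 82.51, 92.17 and 84.42 RPKM at E12.5, for a log2 fold change of -0.41 ± 0.18 (adjusted p = 0.532, edgeR). *Mrps2* had -0.24 ± 0.11, *Mrpl3* -0.21 ± 0.10 and *Mrpl36* -0.36 ± 0.18. Higher values, none past the threshold, were those of *Mrpl55* (0.34 ± 0.19), *Mrps11* (0.07 ± 0.15) and the joint row of *Mrps6* and *Slc5a3* (0.04 ± 0.13). E11.5 mutant 3, the library with the steepest length slope, had the highest value of its group for *Mrpl20*.

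Whether the mutant effect differed between stages was tested over all 12 libraries. No member passed in edgeR, where 0% of all tested genes did, nor in DESeq2 or limma. At an unadjusted p under 0.05 edgeR gave 2 members, DESeq2 2 and limma 3. The 2 in edgeR were both higher, which is 2.67% of members against 2.72% of all tested genes. With gene length offsets 0 members were higher and 1 lower at that level, against 3.19% and 2.22% of all tested genes. The 2 in edgeR without offsets were *Mrpl32*, with a difference of 0.51 ± 0.19 on the log2 scale (adjusted p = 0.956), and *Mrps22* with 0.35 ± 0.16 (adjusted p = 0.956). For *Mrpl32* the 3 E11.5 controls were higher than the 9 other libraries, which lay between 46.21 and 60.3 RPKM. *Mrpl22* (0.34 ± 0.16) and *Mrpl55* (0.56 ± 0.28) followed, and the most negative p-ranked differences were *Mrps2* (-0.25 ± 0.13), *Mrpl10* (-0.21 ± 0.15), *Mrpl9* (-0.11 ± 0.12) and *Mrpl3* (-0.07 ± 0.11). The fall with stage in controls is therefore not shown to differ from the values in mutants.

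Other genes of mitochondrial translation were taken from 6 lists, to be read against the 5.81% of all tested genes that fell and the 5.63% that rose in controls between stages. Of 7 proteins of the same ribosome that have other names, *Aurkaip1* and *Chchd1* fell in controls between stages, by 0.50 and 0.63 on the log2 scale (adjusted p = 0.0253 and 0.0209, edgeR), and the median of the list was -0.23. These 2 genes had -0.27 and -0.18 with length offsets (adjusted p = 0.0822 and 0.16). Among 12 translation factors the initiation factor *Mtif2* rose by 0.35 (adjusted p = 0.0495, or 0.059 with length offsets), and among 22 aminoacyl-tRNA synthetases the histidyl enzyme *Hars2* rose by 0.35 (adjusted p = 0.0409, or 0.0704 with length offsets). None of 25 assembly and rRNA modification genes passed in edgeR, with 4 at an unadjusted p under 0.05 and a median of -0.08. Of 16 genes of mitochondrial transcription and RNA handling, *Slirp*, an RNA-binding stabiliser of mitochondrial mRNAs with a length of 419 bases, fell by 0.60 (adjusted p = 0.0364) and had -0.03 with length offsets.

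Among 14 regulators of mitochondrial biogenesis, 2 rose in controls from E11.5 to E12.5, where 5.63% of all tested genes rose. *Ppargc1a*, the coactivator PGC-1alpha, was at 8.078, 10.78 and 8.804 RPKM at E11.5 and at 19.11, 14.82 and 14.44 RPKM at E12.5. The groups did not overlap, and the log2 fold change was 0.81 ± 0.14 (adjusted p = 0.0143, edgeR) and 0.59 with length offsets (adjusted p = 0.0197). *Ppara*, a nuclear receptor of fatty acid oxidation, was at 0.3733, 0.2918 and 0.2237 RPKM and then at 0.8325, 0.9291 and 0.5961 RPKM. Its log2 fold change was 1.40 ± 0.28 (adjusted p = 0.0216, edgeR) and 1.14 with length offsets (adjusted p = 0.0447). All E11.5 control values of *Ppara* lay below the limit of the filter on low values. It reached that limit only through its E12.5 control values, so its rise rests on levels near the floor. In mutants between stages *Ppargc1a* had 0.37 ± 0.17 and *Ppara* 0.39 ± 0.32, neither past the threshold, and the test of the difference did not pass for either gene (adjusted p = 0.956 for both).

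In the comparison of genotypes at E12.5, 1 of 22 aminoacyl-tRNA synthetases passed and 0 genes of the other 5 lists, where 5% of all tested genes did in edgeR. Within those 5 lists 1 assembly gene and 1 regulator were lower at an unadjusted p under 0.05. Of the 22 synthetases 5 had an unadjusted p under 0.05 in edgeR, 2 of them higher and 3 lower in mutants. Of all tested genes 11.2% were higher and 10.2% lower at that level. *Ears2*, the mitochondrial glutamyl-tRNA synthetase, was at 17.97, 19.37 and 18.18 RPKM in E12.5 controls and at 27.8, 31.4 and 32.11 RPKM in E12.5 mutants. The groups lay far apart, and *Ears2* rose by 0.73 ± 0.09 on the log2 scale (adjusted p = 0.00213, edgeR) and by 0.69 with length offsets (adjusted p = 0.00289). At E11.5 *Ears2* was at 19.97, 18.51 and 20.91 RPKM in controls and at 23.48, 25.58 and 38.47 RPKM in mutants, without overlap and with a log2 fold change of 0.57 ± 0.19 (adjusted p = 0.329).

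Promoter sequences of the members were looked at as a description. Their part in the shared movement of the 75 genes across libraries was not tested. RefSeq (GRCm38.p6) gave a window of 300 bases, 250 before the start site and the rest after it, for 65 members. Not matched were *Mrpl4*, *Mrpl13*, *Mrpl15*, *Mrpl19*, *Mrpl38*, *Mrpl54*, *Mrps28*, *Mrps34*, *Mrps35* and *Mrps6*. Letters of 3 motifs of factors known to act on nuclear genes of mitochondrial proteins were searched on both strands. The ETS motif CCGGAAG was in 35.4% of the members' promoters, against 19.6% of those of other tested genes and 9.93% of all promoters. The YY1 motif AAGATGG was in 20%, against 8.09% and 7.28%, and the NRF1 motif GCATGCG in 12.3%, against 7.31% and 4.01%. At least 1 of the 3 was in 53.8% of the members' promoters, against 31% and 19.3%. The SP1 motif GGGCGG was in 49.2%, against 69.8% of other tested genes and 38.2% of all promoters. The TATA motif TATAAA was in 7.69%, against 8.56% and 15.7%, and GAGAGAGA in 0%, against 3.98% and 4.55%. The sequences before the starts of 3 members that fell in controls under at least 1 scaling are shown, with matches to the ETS, YY1 and NRF1 motifs in capitals. They cover chr5:100798509-100798758 (+ strand) for *Mrps18c*, chr19:4962056-4962305 (+ strand) for *Mrpl11* and chr7:105811088-105811337 (- strand) for *Mrpl17*.
Mrps18c: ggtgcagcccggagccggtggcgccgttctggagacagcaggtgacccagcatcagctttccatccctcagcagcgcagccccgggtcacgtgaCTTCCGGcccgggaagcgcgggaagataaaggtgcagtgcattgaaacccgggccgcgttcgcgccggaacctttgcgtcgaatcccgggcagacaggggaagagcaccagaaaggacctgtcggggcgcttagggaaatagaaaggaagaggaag
Mrpl11: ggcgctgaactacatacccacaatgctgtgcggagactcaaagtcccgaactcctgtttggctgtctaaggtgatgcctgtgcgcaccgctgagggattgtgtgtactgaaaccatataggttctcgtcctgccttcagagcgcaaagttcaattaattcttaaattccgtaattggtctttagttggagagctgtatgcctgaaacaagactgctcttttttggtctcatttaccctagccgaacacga
Mrpl17: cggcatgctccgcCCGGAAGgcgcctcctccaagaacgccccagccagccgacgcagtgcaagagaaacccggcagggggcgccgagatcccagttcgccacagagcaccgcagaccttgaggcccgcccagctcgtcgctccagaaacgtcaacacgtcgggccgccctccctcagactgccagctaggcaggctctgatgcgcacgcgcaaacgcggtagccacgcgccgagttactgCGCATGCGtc
*Mrps18c* held an ETS match on the reverse strand, *Mrpl17* held an ETS match and an NRF1 match that reads on both strands, and in *Mrpl11*, at a GC content of 47.2% against 63.6% and 68.4% for the other two, these letters were not found in the window. A match is a sequence description, and binding was not measured here.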

How the data were processed

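RNA was extracted from embryonic hearts in triplicate and paired-end reads were made on an Illumina NextSeq 500. The submitters' processing notes name Bowtie2 (version 2), DESeq and mm10. The counting program, the annotation and use of the strand are not given in the sources used here. Expression of the 12 libraries was deposited in 1 table whose header calls its values RPKM. The authors also deposited, per stage, the mean count of each group, which is an expected count made by averaging raw counts of 3 libraries, per the file headers. The authors' fold changes and p-values, in the same files, hold their own comparisons and were not used. Each deposited value named RPKM proved to be a whole count times a gene length and a library factor. Counts were recovered from these values and the deposited mean counts for 17827 genes, with a largest distance from a whole number of 1.65e-05, and 1597 genes had no reads. Counts were used in place of the limma test that a table of RPKM would need.

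RPKM were computed from the recovered counts, gene lengths and TMM-scaled library sizes. The main test was edgeR 4.0.16 (quasi-likelihood, R 4.3.3, TMM) within a stage or genotype, over genes whose mean RPKM reached 0.5, with Benjamini-Hochberg adjustment over all of them and a call at an adjusted p of at most 0.05. The difference of the mutant effect between stages used all 12 libraries. DESeq2 1.42.0 and limma 3.58.1 on log2(RPKM + 0.5) were alternatives, with other scalings, filters, pseudocounts, offsets, a sex term, the replicate block and libraries left out. The procedure was tested on simulated data. SEs derive from the F statistic. The labels do not say that libraries came from separate embryos, so p-values measure the spread between these samples. Counting error covers only part of the error at 11994148 to 17483982 reads a library.

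The members, lists and roles were chosen with earlier results of these data known. Named were, in each comparison, the 4 members with the lowest p in each direction, the 5 highest and 5 lowest by level, members with a listed role, *Mrpl40*, *Mrpl23* and *Hira*, and list genes called between genotypes. List genes called between stages, genes named for exon overlap and genes that pass only under an alternative were named after their values were seen.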

Additional observations from a re-analysis of the deposited data

How the results depend on the processing

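The replicate numbers did not pair the libraries: the correlation of same-numbered libraries' deviations ran from -0.13 to 0.44 and was not above 0.1 in all 3 pairs of any comparison, and 1 or 2 of the 3 numbers correlated best with their own partner. With the replicate number as a block, 27 members passed between stages in controls, or 6 with gene length offsets as well (median -0.06, and 0.03 for genotypes at E12.5), and the block changed no other count. The control stage count of 17 was 33 with DESeq2, 7 with all 12 libraries in one fit, 2 with gene length offsets, and 6 with a fold change of at least 1.5. Of all tested genes 5.81% fell in edgeR, 9.21% in DESeq2 and 2.15% with gene length offsets. Among settings chosen after the data were seen, the count was 4 with length and GC offsets. It was 10 with coding transcript length offsets, where 3.97% of all tested genes fell. Shares of all tested genes are not given here for the other settings, so those counts do not set members apart from other genes. With a sex term the comparison rested on E12.5 control 3 alone against the E11.5 controls, so no count is given. The count of 17 ranged from 0 to 40 with each library left out in turn, and leaving out any of the 6 moved it by over 1.5 times. The median there was -0.06 with length offsets and -0.04 with length and GC offsets. The genotype median moved from -0.06 to 0.25 at E11.5 with a sex term, where the comparison rested on E11.5 mutant 3. At E12.5 it moved to 0.03 with length offsets, and 0 to 1 members passed there with each library left out. Of the values of single genes under alternatives, 309 stayed on their side of the threshold, 168 fell short of one passed before and 3 newly passed it.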
